A study of Rattus norvegicus with 4 samples.

Results

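The carbonic anhydrases and the Slc4 and Slc9 transporters of the rat carotid body (CB) were compared between neonates and adults. Members were taken by gene symbol: every row named Ca or Car with a number (the file spells the carbonic anhydrases either way), Slc4a with a number or Slc9a with a number. This gave 35 of the 32883 genes listed, of which 16 were carbonic anhydrase genes, 10 were Slc4 genes and 9 were Slc9 genes. RNA was measured in CBs of Sprague Dawley rats at day 5, called neonates here, and at day 21, called adults, with 2 libraries per age. According to the labels each library pooled the CBs of 6 pups or 3 adults, so a library is a pool rather than a rat, and variation between rats was not measured. No treatment separated the groups. The paper states that both sexes were included, without giving the sexes in each pool. With 2 libraries against 2, an exact two-sided permutation test of a single gene cannot give a p below 0.333, so differences were tested with edgeR's quasi-likelihood test fitted across all genes, which borrows information on the spread between genes.

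Carbonic anhydrases catalyse the reversible hydration of CO2 to bicarbonate and a proton. Slc4 proteins carry bicarbonate across membranes, either in exchange for chloride or together with sodium, and Slc9 proteins exchange sodium or potassium for protons. The glomus cells of the CB sense a rise in CO2 and a fall in pH as well as a fall in oxygen, and the rate at which CO2 becomes acid inside and outside the cell, and the transport of acid and base across its membrane, set the pH that these cells experience.

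Before the values, the sequence around the start of 3 members is shown: Ca9 and Ca12, the membrane carbonic anhydrases that differed in opposite directions between the ages, and Slc9a5, the member with the largest fold difference. Each stretch is the reference sequence of RefSeq on the GRCr8 build, on the plus strand, from 120 bases before the annotated start to 30 bases after it, whereas the counts were made on Rnor_6.0. Capitals mark ACGTG or its reverse complement CACGT, the core of the sequence bound by hypoxia-inducible factors, the transcription factors of the cell's response to low oxygen. Ca9 is a textbook target of these factors. The stretches lie at chr5:62558904-62559053 for Ca9, at chr8:76169695-76169844 for Ca12 and at chr19:50136620-50136769 for Slc9a5.
Ca9: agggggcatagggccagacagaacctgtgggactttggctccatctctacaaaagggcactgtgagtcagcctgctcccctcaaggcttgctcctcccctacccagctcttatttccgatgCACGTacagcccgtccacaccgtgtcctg
Ca12: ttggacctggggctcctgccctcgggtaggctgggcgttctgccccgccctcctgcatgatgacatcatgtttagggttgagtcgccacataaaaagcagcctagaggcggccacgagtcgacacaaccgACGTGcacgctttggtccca
Slc9a5: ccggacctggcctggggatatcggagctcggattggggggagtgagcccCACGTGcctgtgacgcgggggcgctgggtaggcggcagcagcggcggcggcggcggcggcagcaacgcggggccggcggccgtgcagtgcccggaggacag
In Ca9 the match lay on the minus strand at bases 2 to 6 after the start. In Ca12 it lay on the plus strand at bases 11 to 15, and a second match at bases 35 to 39 fell beyond the printed stretch. In Slc9a5 the letters formed a palindrome, so that 1 match on each strand overlapped, at -71 to -67 and at -70 to -66. Windows of 300 bases around the start were at hand for 24 of the 35 members, and 8 of these 24 genes held the motif on either strand (Ca4, Ca9, Ca12, Ca14, Car15, Slc9a2, Slc9a3 and Slc9a5). Counted by window, 9 of 25 member windows held it, beside 6444 of all 33469 windows, or 19.3%. So short a motif is common, and a match is a description of the letters only. Ca9 and Ca12, whose levels differed in opposite directions, both hold it, and the part of the motif in either difference was not tested.

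The libraries held 36286191 to 39476110 estimated counts, and levels below are CPM, that is counts scaled to TMM-normalized library sizes. On that scale 3 counts, the limit that a count of 0 allows, corresponded to 0.0736 to 0.0845 CPM. They are not corrected for gene length, so they are compared between libraries and not between genes. Intervals and limits of this kind cover counting error only. Markers of glomus cells were present in all 4 libraries: all 11 listed genes were tested, and their summed level was 5366 and 6887 CPM in neonates and 4878 and 5925 CPM in adults. RNA of other tissue was present, beyond traces, and touches results below. The neonatal replicate 1 library held parathyroid RNA, with Pth, the parathyroid hormone gene, at 1773 CPM against 208 CPM in neonatal replicate 2 and 0 counts in both adult libraries, and the summed level of 12 red cell genes was 13066 and 7439 CPM in neonates against 2910 and 2538 CPM in adults. In bulk tissue, fewer cells of a type and less RNA per cell cannot be told apart, which holds for every difference given here.

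Of the 35 members, 25 reached 1 CPM in 2 or more libraries and entered the test, and 10 did not. A gene was called where its adjusted p lay under 0.05 and the ages differed by 2-fold or more. Among the 25 tested, 3 members were called higher in neonates (Ca9, Slc4a1 and Slc9a5), which is 12% of them beside 7.68% of all 13843 genes tested. A further 9 were called lower in neonates (Ca3, Ca4, Ca12, Ca13, Slc4a4, Slc4a7, Slc4a8, Slc9a7 and Slc9a8), 36% beside 13.2% of all genes. By adjusted p alone, 7 members were higher in neonates (28% beside 31.2% of all genes) and 11 were lower (44% beside 31.1%). The median log2 fold change, coded as day 5 minus day 21 throughout, was -0.24 over the tested members and -0.0029 over all genes tested. Ca4, Slc4a4 and Slc9a7 passed the filter only through their adult libraries and so could enter the test only because they were high there.

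**Figure D1:**
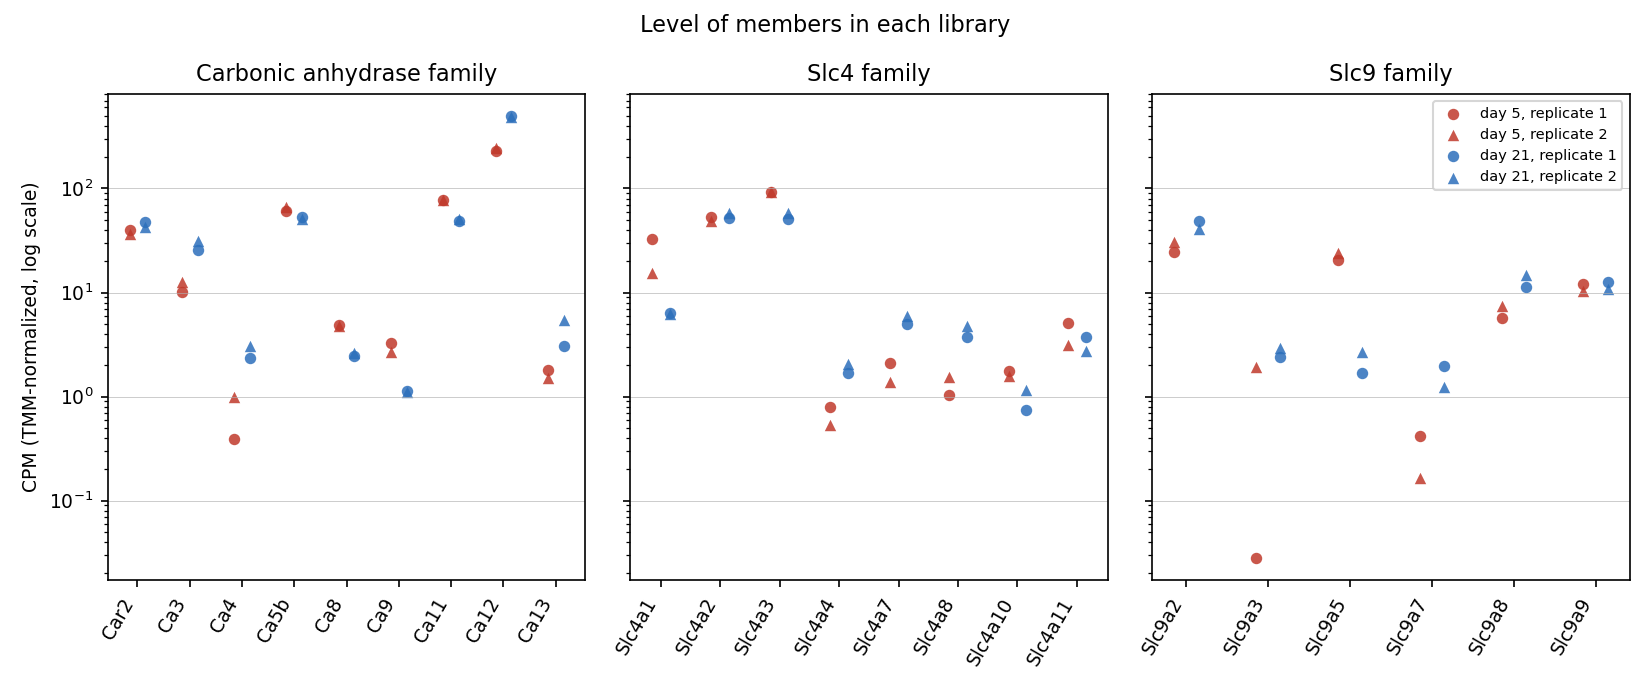
Level of the tested members described in the text in each library, in TMM-normalized CPM on a log scale, by family, with red for day 5, blue for day 21, circles for replicate 1 and triangles for replicate 2. Ca12 sat at 229 and 243 CPM in neonates and 483 and 501 CPM in adults, Slc9a5 was high in both neonatal libraries, and Slc9a3 had a single count in neonatal replicate 1.

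**Figure D2:**
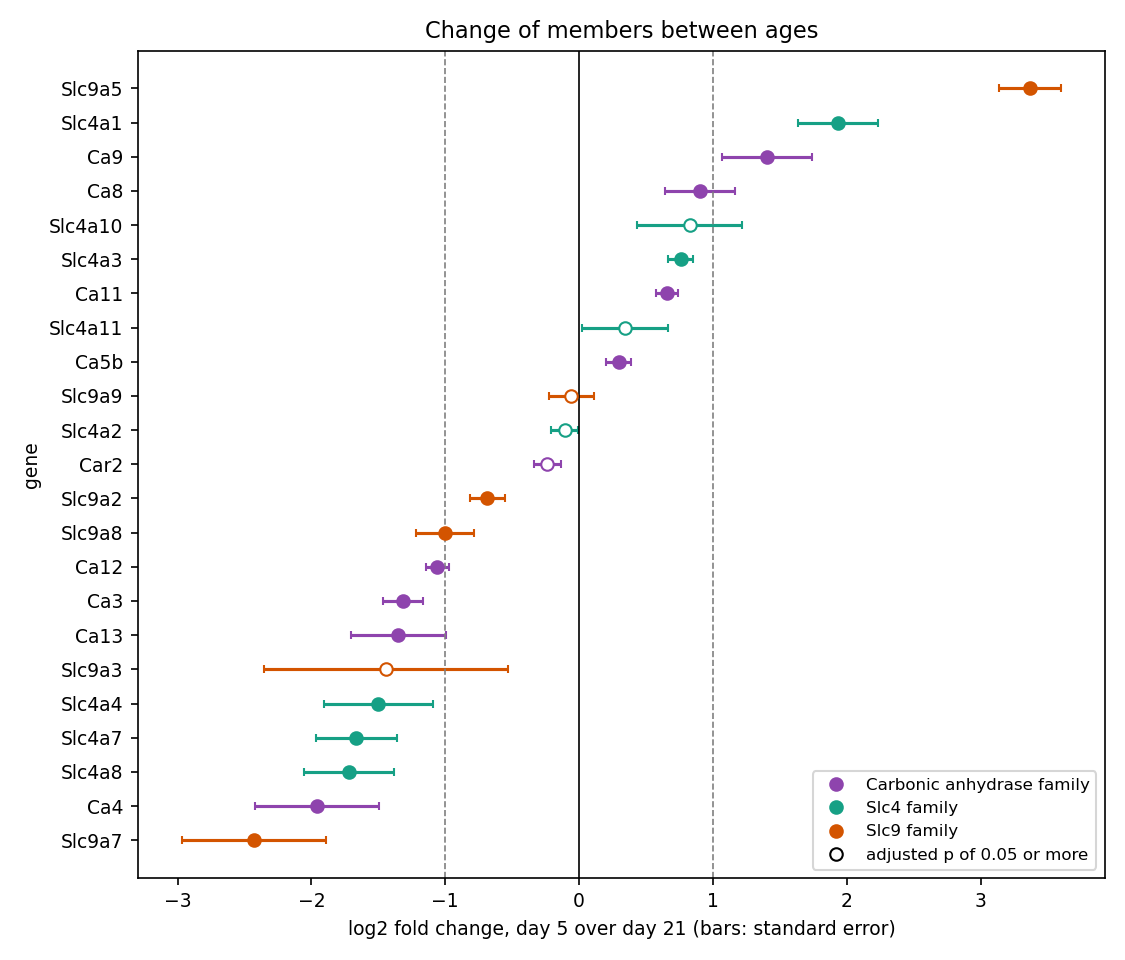
Log2 fold change of the tested members described in the text, day 5 over day 21, with its standard error as bars, colours for the 3 families, open points for an adjusted p of 0.05 or more and dashed lines at a 2-fold change. Slc9a5 (3.37) and Slc9a7 (-2.43) lay at the 2 ends, and both belong to the Slc9 family.

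Among the carbonic anhydrases, 9 of 16 genes were tested. Of these 9, 4 (Ca3, Ca4, Ca12 and Ca13) were called lower in neonates, 44.4% beside 13.2% of all genes tested. Ca4 passed the filter only through its adult libraries. A further 1 (Ca9) was called higher, 11.1% beside 7.68% of all genes. The enzymes on the outer face of the plasma membrane moved in both directions. Ca12, a transmembrane enzyme whose catalytic domain faces the outside of the cell, stood at 229 and 243 CPM in the neonatal libraries and at 501 and 483 CPM in the adult libraries. The ages did not overlap, and Ca12 was 2.08-fold higher in adults (log2 fold change -1.06, SE 0.084, adjusted p = 1.5e-05). Ca9, of the same membrane topology, read 3.27 and 2.67 CPM in neonates against 1.13 and 1.11 CPM in adults. That was a 2.65-fold higher level in neonates (log2 fold change 1.41, SE 0.34, adjusted p = 0.0057), resting on 116 and 96 counts against 46 and 44. The 95% interval of the log2 fold change ran from 0.65 to 2.17 for Ca9 and from -1.25 to -0.87 for Ca12. Ca4, an enzyme held to the membrane by a lipid anchor and known from capillary endothelium, had 0.394 and 1.0 CPM in neonates and 2.36 and 3.10 CPM in adults (log2 fold change -1.96, SE 0.47, adjusted p = 0.0055). Its adult levels exceeded both neonatal ones, on only 14 and 36 neonatal counts. Of the endothelial marker list, 7 of 7 measured genes were tested and 0 were called in either direction, and 1 passed the adjusted p alone as higher in neonates and 2 as lower. Its summed level was 1323 and 1360 CPM in neonates and 1388 and 1332 CPM in adults. Ca14, another transmembrane enzyme, was counted only in adults, at 2 and 5 counts, and Car15 had 0 counts in every library, which allows up to 0.0845 CPM.

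The cytosolic enzymes differed less uniformly. Car2, the fast cytosolic enzyme found in many cell types, read 39.7 and 36.9 CPM in neonates and 48.0 and 42.2 CPM in adults. Although the ages did not overlap, the difference did not pass the test (log2 fold change -0.24, 95% interval -0.47 to -0.01, adjusted p = 0.067). Ca3, a slow enzyme abundant in skeletal muscle and fat, read 10.05 and 12.6 CPM in neonates and 25.5 and 31.0 CPM in adults. It was 2.49-fold higher in adults (log2 fold change -1.32, SE 0.15, adjusted p = 1.0e-04). Marker genes of fat moved the same way in part: of 10 adipocyte genes 9 were tested, with 3 called lower in neonates (Adipoq, Plin1 and Cidec, the last of which passed the filter only through its adult libraries) and 0 called higher. By adjusted p alone 5 were lower and 1 was higher, namely Fabp4, a fatty acid carrier of fat cells, at 134 and 178 CPM in neonates against 94.1 and 125 CPM in adults (log2 fold change 0.51, adjusted p = 0.019). Adipoq, which encodes adiponectin, read 2.39 and 1.98 CPM in neonates and 11.7 and 13.2 CPM in adults. The summed level of the list, however, was 240 and 310 CPM in neonates and 289 and 329 CPM in adults, so its ranges overlapped. Of 11 skeletal muscle genes 6 were tested, 1 was called higher and 1 lower, and the summed level of the list was 33.6 and 37.6 CPM in neonates and 51.5 and 57.5 CPM in adults. That order rested on Myh3, a myosin gene called lower in neonates, and without it the sums were 22.5 and 29.6 CPM in neonates and 18.3 and 25.9 CPM in adults, which overlap. The part of fat or muscle in the Ca3 difference was not tested. Ca13 had 1.80 and 1.5 CPM in neonates and 3.04 and 5.39 CPM in adults (log2 fold change -1.35, SE 0.36, adjusted p = 0.0094). Its adult libraries were unequal, and without adult replicate 2 the log2 fold change was -0.91 with an adjusted p of 0.12. Car1, Car2, Ca3 and Ca13 are neighbours on chromosome 2 in the RefSeq annotation, in the order Car2, Ca3, Car1, Ca13. Car1, the abundant enzyme of red cells, fell below the filter with 30 and 28 counts in neonates and 2 and 6 in adults. With no filter it was called higher in neonates (log2 fold change 2.96, SE 0.85, adjusted p = 0.019), opposite in sign to its neighbours Ca3 and Ca13. Car7, a cytosolic enzyme known from brain, had 17 and 13 counts in neonates and 4 and 0 in adults, and without the filter its difference did not pass the test (adjusted p = 0.095).

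Ca5b, the widely expressed mitochondrial enzyme, read 60.5 and 66.7 CPM in neonates and 52.8 and 50.9 CPM in adults. It was 1.23-fold higher in neonates (log2 fold change 0.29, SE 0.092, adjusted p = 0.021), under the 2-fold limit of a call. With library size alone in place of TMM the log2 fold change was 0.05 and no longer passed the adjusted p (0.67). Ca5a, the mitochondrial enzyme of liver, had 3 counts in neonatal replicate 2 and 0 elsewhere. The members that bear the carbonic anhydrase fold without its catalytic activity are Ca8, Car10 and Ca11. Ca11 read 77.5 and 78.2 CPM in neonates and 48.4 and 50.3 CPM in adults. With closely spaced replicates at both ages, it was 1.58-fold higher in neonates (log2 fold change 0.66, SE 0.085, adjusted p = 0.00018). Ca8, a binding partner of the type 1 inositol trisphosphate receptor, had 4.87 and 4.73 CPM in neonates and 2.48 and 2.65 CPM in adults. It was 1.87-fold higher in neonates (log2 fold change 0.91, SE 0.26, adjusted p = 0.014), under the 2-fold limit of a call. When adult replicate 1 or adult replicate 2 was left out, the log2 fold change was 0.83 or 0.93 and missed the adjusted p (0.11 and 0.079). Car10 had 0 to 2 counts in every library. Ca6, the secreted enzyme of saliva, had 22 to 42 counts per library, with overlapping ages.

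The summed level of the 16 carbonic anhydrase genes was 429 and 449 CPM in neonates and 686 and 671 CPM in adults. Ca12 made up 53.3% and 54.1% of the carbonic anhydrase counts in neonates and 73.0% and 72.0% in adults. The 95% Wilson intervals of these shares spanned 52.5% to 54.9% over the neonatal libraries and 71.4% to 73.6% over the adult libraries. A share of counts depends on transcript length, so it is compared here between ages only.

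Of the 10 Slc4 genes 8 were tested. The chloride-bicarbonate exchangers, Slc4a1, Slc4a2 and Slc4a3, did not move together. Slc4a1, the band 3 protein of the red cell membrane, read 32.5 and 15.4 CPM in neonates and 6.36 and 6.20 CPM in adults. Both neonatal libraries exceeded the adult ones, although the neonatal pair differed by 2.11-fold, and the mean level was 3.82-fold higher in neonates (log2 fold change 1.93, SE 0.30, adjusted p = 0.00053). The log2 fold change was 1.31 without neonatal replicate 1 and 2.39 without neonatal replicate 2, past the test both times. Red cell genes moved with it. Of the 12 listed genes with a row, 9 were tested and 7 were called higher in neonates, among them the haemoglobin genes Hba-a1, Hba-a2, Hba-a3 and Hbb, Alas2 of haem synthesis, Ahsp, a chaperone of alpha haemoglobin, and Epb42 of the red cell skeleton. None of the 9 was called lower, and Tmcc2 alone passed the adjusted p as lower in neonates, at under 2-fold. Neonatal replicate 1 stood above neonatal replicate 2 by 1.67-fold for Hbb, 1.74-fold for Hba-a1, 1.69-fold for Alas2 and 2.57-fold for Ahsp, whereas Epb42 had a ratio of 0.940. No red cell marker was at 0 in every library. The part of red cells in the Slc4a1 difference, and in that of Car1, was not tested.

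**Figure D3:**
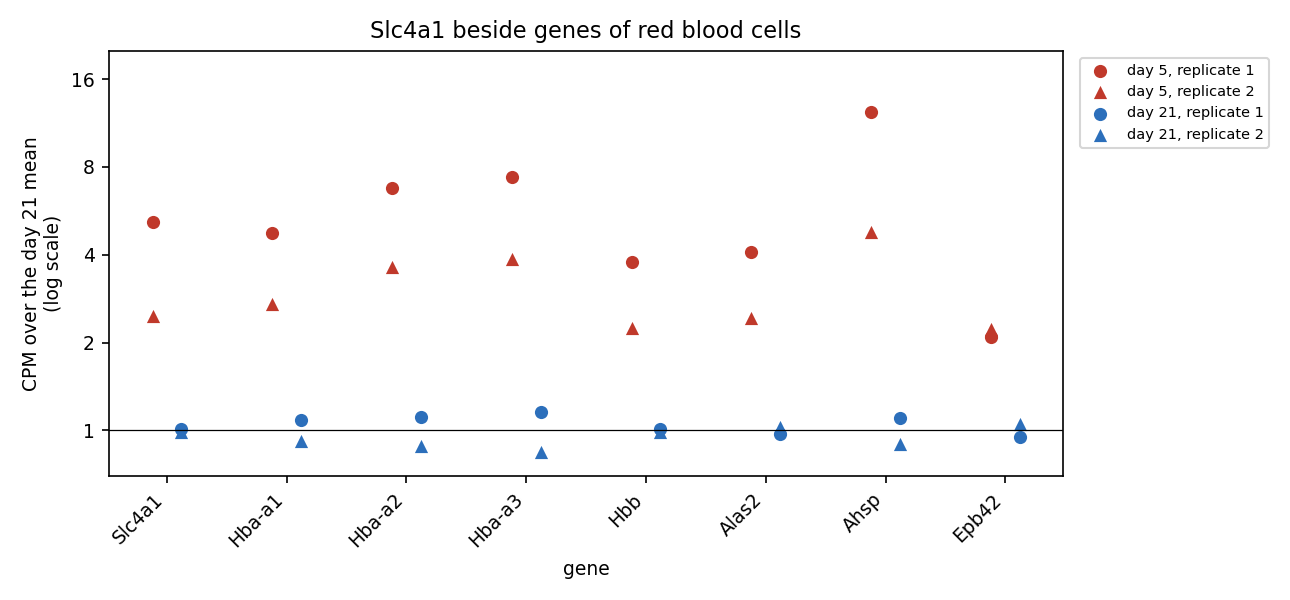
Level of Slc4a1 and of the 7 red cell genes called higher in neonates, each divided by its own mean at day 21 (black line at 1), on a log scale, with red for day 5, blue for day 21, circles for replicate 1 and triangles for replicate 2. Slc4a1 lay 5.18-fold and 2.46-fold above its adult mean in the 2 neonatal libraries, and neonatal replicate 1 was the higher library for Slc4a1 and for all 7 genes except Epb42.

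Slc4a2, the exchanger found in most tissues, read 52.9 and 48.6 CPM in neonates and 51.6 and 57.9 CPM in adults. The ages overlapped, and the 95% interval of the log2 fold change, -0.34 to 0.12, did not reach a 2-fold difference in either direction. Slc4a3, the exchanger known from brain, heart and other excitable tissue, stood at 91.9 and 92.1 CPM in neonates and 50.8 and 58.0 CPM in adults. It was 1.69-fold higher in neonates (log2 fold change 0.76, SE 0.092, adjusted p = 0.00013).

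The sodium-coupled bicarbonate transporters, which bring base into or out of the cell with sodium, were read one by one. Of 5 such genes, all but Slc4a5 were tested. Among those tested, 3 were called lower in neonates, beside 13.2% of all genes tested. Of these 3, Slc4a4 passed the filter only through its adult libraries. The remaining tested gene, Slc4a10, did not pass the test. The untested Slc4a5 had 4 counts in adult replicate 1 and 0 elsewhere. Slc4a7, an electroneutral cotransporter, had 2.08 and 1.39 CPM in neonates and 5.03 and 6.00 CPM in adults. It was 3.17-fold higher in adults (log2 fold change -1.66, SE 0.31, adjusted p = 0.0014). Slc4a8, a sodium-driven chloride-bicarbonate exchanger known from neurons, had 1.04 and 1.53 CPM in neonates and 3.75 and 4.74 CPM in adults. The adult level was 3.29-fold the neonatal one (log2 fold change -1.72, SE 0.33, adjusted p = 0.0019). Slc4a4, an electrogenic cotransporter, had 0.789 and 0.529 CPM in neonates and 1.67 and 2.07 CPM in adults (log2 fold change -1.50, SE 0.40, adjusted p = 0.010). All 3 of these called genes were counted at low depth, with 19 to 74 counts per neonatal library. Slc4a10, a sodium-coupled transporter of neurons, had 1.77 and 1.59 CPM in neonates and 0.736 and 1.16 CPM in adults. Its difference had the opposite sign and did not pass the test (log2 fold change 0.83, 95% interval -0.07 to 1.72, adjusted p = 0.096). Slc4a11, a family member best known from the corneal endothelium, had 5.10 and 3.15 CPM in neonates and 3.73 and 2.77 CPM in adults, with overlapping ages (adjusted p = 0.38). Slc4a9 had 4 counts in neonatal replicate 2 and 0 elsewhere.

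Of the 9 Slc9 genes 8 were tested. Among those known from the plasma membrane, Slc9a5 showed the largest fold difference of all members. Slc9a5, an exchanger known mainly from neurons, where it sits at the surface and in recycling endosomes, read 20.7 and 24.2 CPM in neonates and 1.67 and 2.67 CPM in adults. The counts were 734 and 868 against 68 and 106, far beyond the spread within either age. It was 10.3-fold higher in neonates (log2 fold change 3.37, SE 0.23, adjusted p = 8.0e-06), and with any 1 library left out the log2 fold change stayed between 3.04 and 3.72. Slc9a5 made up 12.5% and 14.2% of all Slc9 counts in neonates and 0.845% and 1.40% in adults. Neuronal markers moved less: of 7 listed genes 6 were tested and 1, Tubb3, was called higher in neonates, and 0 were called lower. By adjusted p alone 4 were higher in neonates and 1 was lower. The summed level of the list was 2756 and 2561 CPM in neonates and 2541 and 2084 CPM in adults. Proliferation markers were higher in neonates for 7 of 7 genes, with a summed level of 637 and 546 CPM against 140 and 142 CPM. The part of neuronal or dividing cells in the Slc9a5 difference was not tested. Without neonatal replicate 1, the library with the most Pth, its log2 fold change was 3.49. The other neonatal library still held Pth at 208 CPM, and the part of parathyroid tissue was not tested either.

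Other plasma membrane exchangers described here had smaller or unclear differences. Slc9a2, known from epithelia, had 24.8 and 30.6 CPM in neonates and 48.3 and 40.8 CPM in adults, 1.61-fold higher in adults (log2 fold change -0.68, SE 0.13, adjusted p = 0.0015). Slc9a3, the exchanger of kidney and gut epithelia, had 1 count in neonatal replicate 1 and 69 in neonatal replicate 2, against 98 and 116 in adults. The neonatal pair disagreed by more than the ages did, and the difference did not pass the test (log2 fold change -1.45, SE 0.91, adjusted p = 0.19). Without neonatal replicate 1 its log2 fold change was -0.46 (adjusted p = 0.27), and without neonatal replicate 2 it was -6.39 (adjusted p = 2.6e-05), so the value rests on which neonatal library is read. Slc9a4, the exchanger of the stomach and the neighbour of Slc9a2 on chromosome 9, had 18 to 43 counts per library, with overlapping ages.

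Of the exchangers that sit in the membranes of organelles, Slc9a7 and Slc9a8 of the Golgi apparatus were called lower in neonates. Slc9a7 had 0.422 and 0.167 CPM in neonates and 1.96 and 1.23 CPM in adults (log2 fold change -2.43, SE 0.54, adjusted p = 0.0038). It was 5.39-fold higher in adults, on 15 and 6 neonatal counts. Slc9a8 had 5.66 and 7.43 CPM in neonates and 11.4 and 14.8 CPM in adults (log2 fold change -1.0, SE 0.21, adjusted p = 0.0032), which lies at the 2-fold limit of the call. Its log2 fold change was -0.81 without neonatal replicate 1 and -0.82 without adult replicate 2, past the adjusted p but under 2-fold. Slc9a9 of late endosomes read 12.0 and 10.4 CPM in neonates and 12.6 and 10.8 CPM in adults, with overlapping ages and a 95% interval of the log2 fold change from -0.44 to 0.32.

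The genes that act beside these enzymes and transporters were taken from 7 lists: Slc26 anion exchangers, monocarboxylate transport, V-ATPase subunits, other proton exchangers and channels, regulators of the members, proton sensors, and channels for CO2 and ammonia. Of these, 58 genes were tested. In neonates, 5 were called higher (8.62% beside 7.68% of all genes) and 9 were called lower (15.5% beside 13.2%), with a median log2 fold change of -0.015. These shares lie near those of all genes. Of the called genes, 4 of the 9 lower (Slc26a2, Hvcn1, Asic2 and Asic4) and 2 of the 5 higher (Insrr and Rhcg) passed the filter only through the age in which they were high, so they could enter the test only because they differed. Of the V-ATPase genes, whose products pump protons into vesicles and lysosomes, 19 of 24 were tested. Atp6v0e2 alone was called, lower in neonates (17.8 and 18.9 CPM against 51.9 and 50.7 CPM in adults), and by adjusted p alone 5 subunit genes were higher and 5 lower, among them Atp6v1c2 (log2 fold change 0.93, adjusted p = 0.024) and Atp6v1a (log2 fold change -0.74, adjusted p = 8.6e-05).

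Of 9 tested proton sensors, 2 were called higher and 3 lower in neonates, beside 7.68% and 13.2% of all genes tested. Kcnk9, which encodes the acid-sensitive potassium channel TASK3, read 3.10 and 2.48 CPM in neonates and 31.3 and 26.3 CPM in adults (log2 fold change -3.37, SE 0.17, adjusted p = 2.4e-06). The other potassium channel genes of the list did not share this difference. Kcnk3 read 218 and 227 CPM in neonates and 197 and 166 CPM in adults (log2 fold change 0.29, adjusted p = 0.024). Kcnk5 did not pass the test (log2 fold change -0.06, adjusted p = 0.84). Among the acid-sensing ion channel genes, Asic1 was called higher in neonates (13.5 and 12.4 CPM against 6.48 and 4.99 CPM), and Asic2 and Asic4 were called lower (log2 fold changes of -1.24 and -1.93). Insrr, an alkali-sensing receptor, had 11.7 and 6.12 CPM in neonates and 0.810 and 0.882 CPM in adults (log2 fold change 3.39, SE 0.37, adjusted p = 7.5e-05). Of the gas channels, Aqp1, which encodes a water channel that also passes CO2, read 233 and 237 CPM in neonates and 599 and 623 CPM in adults (log2 fold change -1.38, SE 0.083, adjusted p = 4.6e-06). Rhcg, an ammonia channel, read 33.6 and 2.20 CPM in neonates and 0.123 and 0.101 CPM in adults, and was called higher in neonates (log2 fold change 7.28, adjusted p = 0.0014). The library with the high Rhcg value was the one with the most Pth, at 1773 CPM against 208 CPM. Of the 3 parathyroid genes, 2 were tested and both were called higher in neonates, with Pth and Gcm2 at 0 counts in both adult libraries and a summed level over the 3 genes of 1796 and 212 CPM in neonates. Rhcg and Insrr did not reach the filter once 1 neonatal library, whichever it was, had been left out, and the part of parathyroid tissue in their differences was not tested.

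Slc16a1, which encodes a cotransporter of lactate and protons, read 57.2 and 67.1 CPM in neonates and 197 and 176 CPM in adults, 3.00-fold higher in adults (log2 fold change -1.59, SE 0.10, adjusted p = 5.5e-06). Hvcn1, the voltage-gated proton channel gene known from immune cells, had 0.422 and 0.334 CPM in neonates and 1.5 and 2.02 CPM in adults (log2 fold change -2.21). Macrophage markers were lower in neonates too, with 3 of 8 called, 0 called higher, and a summed level of 92.9 and 105 CPM in neonates against 175 and 170 CPM in adults, and their part in the Hvcn1 difference was not tested. Among the Slc26 anion exchangers, 7 of 11 were tested, Slc26a10 was called higher in neonates (41.0 and 48.5 CPM against 15.9 and 23.7 CPM) and the sulphate transporter gene Slc26a2 was called lower (log2 fold change -2.23). Of the regulators, Wnk4, a kinase of ion transport, was called higher (log2 fold change 1.04) and Ptprg, whose product carries a carbonic anhydrase-like domain outside the cell, was called lower (log2 fold change -1.17).

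**Figure D4:**
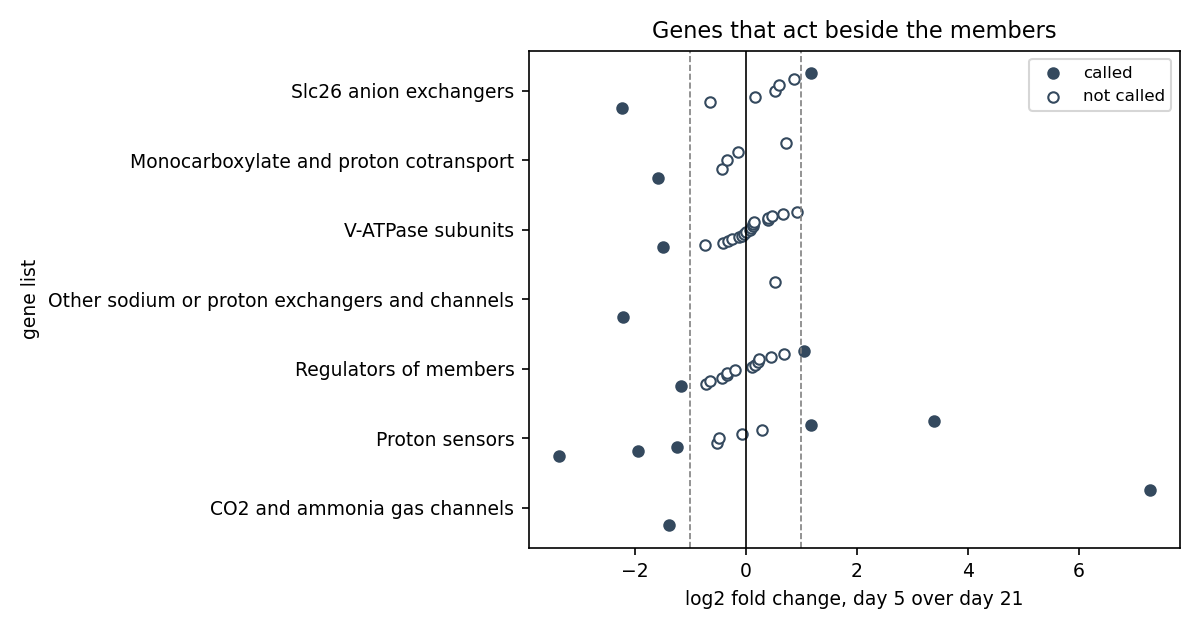
Log2 fold change, day 5 over day 21, of each of the 58 tested genes of the 7 lists, with filled points for called genes, open points for the others and dashed lines at a 2-fold change. The V-ATPase subunits other than Atp6v0e2 lay within the 2-fold lines, between Atp6v1a at -0.74 and Atp6v1c2 at 0.93, whereas the called proton sensors lay on both sides, from Kcnk9 at -3.37 to Insrr at 3.39.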

How the data were processed

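RNA-seq libraries of the CB (poly A+ selection, paired-end, 2 per age) were quantified by the authors with STAR and Salmon 1.5.2 on Rnor_6.0, and the deposited values are estimated counts per gene, not normalized. Strandedness was not given in the sources used here. The labels and the paper give different pool sizes, replicate numbers and RNA input, and the labels were followed. The members and gene lists were chosen with earlier results of these data known.

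Estimated counts were rounded, 636 genes annotated as non-coding were removed by symbol (13665 genes without an annotated type were kept), and those reaching 1 CPM in 2 or more libraries, 13843 in all, were tested. Differences were tested with edgeR 4.0.16 (TMM, quasi-likelihood test, Benjamini-Hochberg over all genes tested) in R 4.3.3, and called where the adjusted p lay under 0.05 and the ages differed by 2-fold or more. Standard errors were derived from the F statistic. The script was tested on simulated data. P-values measure the spread between these pooled libraries. The replicates of an age differed by more than sampling noise (chi-square per degree of freedom 29.0 at day 5 and 13.3 at day 21), so no library was a copy of another. The sources used here do not say whether the replicate numbers pair samples across ages.

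Alternatives were DESeq2 1.42.0 size factors and test, library size alone, TMM without mitochondrial and ribosomal protein genes, limma-voom (limma 3.58.1), other filters, a replicate block and leaving out each library. Members with an adjusted p under 0.05 were named with the value in every library, the other tested members with their levels, and those below the filter with their counts; list genes were named where called. Fabp4, Atp6v1a, Atp6v1c2, Tmcc2, Kcnk3 and Kcnk5 were named after their values were seen. The values of 2 tested members are not reported here. All 35 symbols were matched to RefSeq, whose promoter windows were searched for ACGTG on both strands. Protein sequences were not used here. Depth was 36286191 to 39476110 counts per library.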

Additional observations from a re-analysis of the deposited data

How the results depend on the processing

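Of 18 members with an adjusted p under 0.05, 18 kept their direction and 15 also their side of the threshold under every alternative that tested them. The exceptions were Ca5b, Ca8 and Ca13. Ca5b missed the adjusted p with library size alone and without neonatal replicate 2 or either adult library, Ca8 with library size alone (log2 fold change 0.66, adjusted p = 0.053) and without each adult library, and Ca13 without adult replicate 2. Of the members not past the test, Car2 passed in 4 of 13 alternatives, among them without adult replicate 2, Slc9a3 passed in 3, and Slc4a2 passed with library size alone. Members called lower in neonates were 9 in the reported test, 3 with a mean of at least 5 CPM, where 14 members were tested, and 4 to 10 when 1 library was left out. The lowest, 4, was without adult replicate 2, when Ca4, Slc4a4 and Slc9a7 no longer entered the test; without adult replicate 1 it was 6. Members called higher were 3 in each case of 1 library left out and 7 with no minimum fold change. The partner genes called higher were 2 with library size alone, 17 with no minimum fold change and 3 to 4 with 1 library left out, with 3 without neonatal replicate 1. Those called lower were 5 with a mean of at least 5 CPM, 21 with no minimum fold change and 5 to 9 with 1 library left out, with 5 without either adult library. Over all genes, the calls higher and lower were 704 and 2549 with library size alone, 656 and 1168 with a mean of at least 5 CPM, and 4325 and 4300 with no minimum fold change. With 1 library left out they ranged from 933 to 1049 higher and from 1325 to 1897 lower. Library size alone moved the all-gene median of the log2 fold changes to -0.25. The cause was not tested where a value moved other than through fewer genes tested. A direction was reversed for Slc4a11 without neonatal replicate 1 (-0.038) and for Slc9a9 without neonatal replicate 2 (0.058) and without adult replicate 1 (0.030), none past the test, and with 1 library left out Slc9a9 ranged from -0.20 to 0.058.

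The deviations of same-numbered libraries were not correlated across genes (r = -0.015). With 2 libraries per age this single value cannot show whether the samples were paired. With the replicate number as a block, 3 members were called higher and 10 lower, and 1071 and 1866 of all genes. Slc9a3 (log2 fold change -2.17, adjusted p = 0.0036) and Car2 (adjusted p = 0.037) passed only under the block among these 2 fits. Slc9a8 lay at the 2-fold limit, and it was not called with limma-voom or with TMM computed without mitochondrial and ribosomal protein genes. Low counts limit what can be said of the 10 members below the filter and of Ca4, Slc4a4 and Slc9a7, and pooling leaves the variation between rats unmeasured.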
